A study of Rattus norvegicus with 24 samples.

Results

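The miR-221 and miR-222 cluster was measured in rat peripheral blood mononuclear cells (PBMCs) on 24 one-colour Agilent miRNA arrays. Its members were the 2 miRNAs, of 677 on the array, whose listed name was exactly rno-miR-221 or rno-miR-222, and no measured value was used to choose them. Female Wistar rats were studied in 12 groups of 2 arrays. Arthritis was induced with bovine type II collagen in adjuvant (collagen-induced arthritis), a rat model of rheumatoid arthritis. NORA denotes healthy animals (NOCIA in the study) and RA arthritic animals before any therapy (CIA in the study). AP denotes arthritic animals treated by mechanical stimulation with a twirled subcutaneous needle (MS in the study). Arthritic MTX animals received methotrexate and arthritic PLA animals saline, both by weekly peritoneal injection. Arthritic ANE animals were anaesthetised with isoflurane in place of ether at blood sampling and had no other therapy. All animals were shaved, as the needle required it. NORA and RA were sampled before therapy (T0), while NORA and the 4 arms given therapy or isoflurane were sampled 1 hour (1h) and 34 days (34d) after its start. Animals were killed at sampling, so the times are different animals. The labels give neither their age nor the number of animals behind an array.

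miR-221 and miR-222 are cut from neighbouring hairpins on the X chromosome, and their main strands begin with the same seed, the stretch that pairs with target mRNAs. They are known as repressors of Kit, the receptor for stem cell factor, and of the cell cycle inhibitor p27 (Cdkn1b). In the vessel wall they are studied for opposite roles in endothelial and smooth muscle cells, and in blood for the control of progenitor and red cell growth. The study asked how a local mechanical stimulus is carried through the blood to an arthritic joint.

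The mature sequences are shown because the shared seed defines the pair. They are RefSeq sequences on the GRCr8 build, written from the 5′ end, with the seed (bases 2 to 8) in capitals.
rno-miR-221-3p: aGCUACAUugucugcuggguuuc
rno-miR-222-3p: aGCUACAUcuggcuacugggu
The first 8 bases were the same in both, and among the 693 mature rat miRNAs in the table used no other had this seed. The array names without an arm were taken as these 3p strands, and the array's star names as the 5p strands.

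The hairpins are shown to place both arms, with the 5p arm first and the 3p arm second in capitals. Both lie on the plus strand, Mir222 at chrX:6022621-6022723 and Mir221 at chrX:6023182-6023290.
Mir222: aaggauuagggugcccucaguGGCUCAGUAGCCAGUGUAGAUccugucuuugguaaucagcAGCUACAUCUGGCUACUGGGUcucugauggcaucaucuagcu
Mir221: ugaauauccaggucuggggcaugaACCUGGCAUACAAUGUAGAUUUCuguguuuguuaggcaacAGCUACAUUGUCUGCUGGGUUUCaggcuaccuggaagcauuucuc
They are separated by 458 bases. The annotation lists the long non-coding RNA genes LOC120099382 and LOC120099384 overlapping the interval they span.

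Across the series, 145 to 207 miRNAs were detected per array and 132 on all 24. Intensities were scaled so that each array's 75th percentile over those 132 was equal, with factors from 0.452 to 1.42. The smallest factors belonged to AP_1h replicate 1 (0.452) and AP_34d replicate 1 (0.456). The arrays lay on 3 slides, and each group lay on 1 slide. A comparison between slides therefore cannot tell the slide apart from the group. The leukocyte miRNAs miR-142-3p and miR-142-5p, the lymphocyte miRNAs miR-150, miR-342-3p, miR-181a and miR-181b, and the myeloid miR-223 were detected on every array. The red cell miRNAs miR-451 and miR-144 were also detected on every array. In this mixture of cells, fewer cells of a type and less of a miRNA per cell cannot be told apart.

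miR-221 was present throughout and miR-222 sat at the edge of detection. miR-221 was detected on 24 of 24 arrays, and all 20 of its spots, 10 for each of 2 probes, gave a positive signal on every array. Its total intensity was 6.31 to 12.6 times the error listed for it. Its second probe was 1.56 to 1.99 times as bright as its first, with a median of 1.71. miR-222 was detected on 5 of 24 arrays and in no group on both arrays.

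Scaled miR-221, on the log2 scale, stayed within a narrow band in most groups. In NORA_T0 the arrays read 5.84 and 5.88, and in RA_T0 6.29 and 6.10. At 1 hour the NORA arrays read 6.11 and 6.03, the MTX arrays 5.94 and 6.00, and the PLA arrays 6.23 and 5.72. The remaining 1 hour groups had wide replicates: AP_1h read 4.69 and 5.75, and ANE_1h 5.31 and 6.88. These last pairs hold both the lowest and the highest array of the series.

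At 34 days the healthy NORA arrays read 5.89 and 5.96. The ANE arrays read 5.98 and 6.17, and the PLA arrays 6.29 and 6.44. The AP arrays were lower, at 5.15 and 5.56, and MTX was split, at 5.16 and 6.23. On this scale both AP arrays lay below both PLA arrays, both ANE arrays and both NORA arrays, and overlapped with MTX. The ANE and NORA arrays lay on a different slide from AP. Unscaled, the AP arrays, at 78.0 and 68.3, overlapped with PLA (70.4 and 71.9), ANE (70.0 and 56.0) and NORA (59.8 and 69.5). The share of all miRNAs with such separations was not counted.

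**Figure D1:**
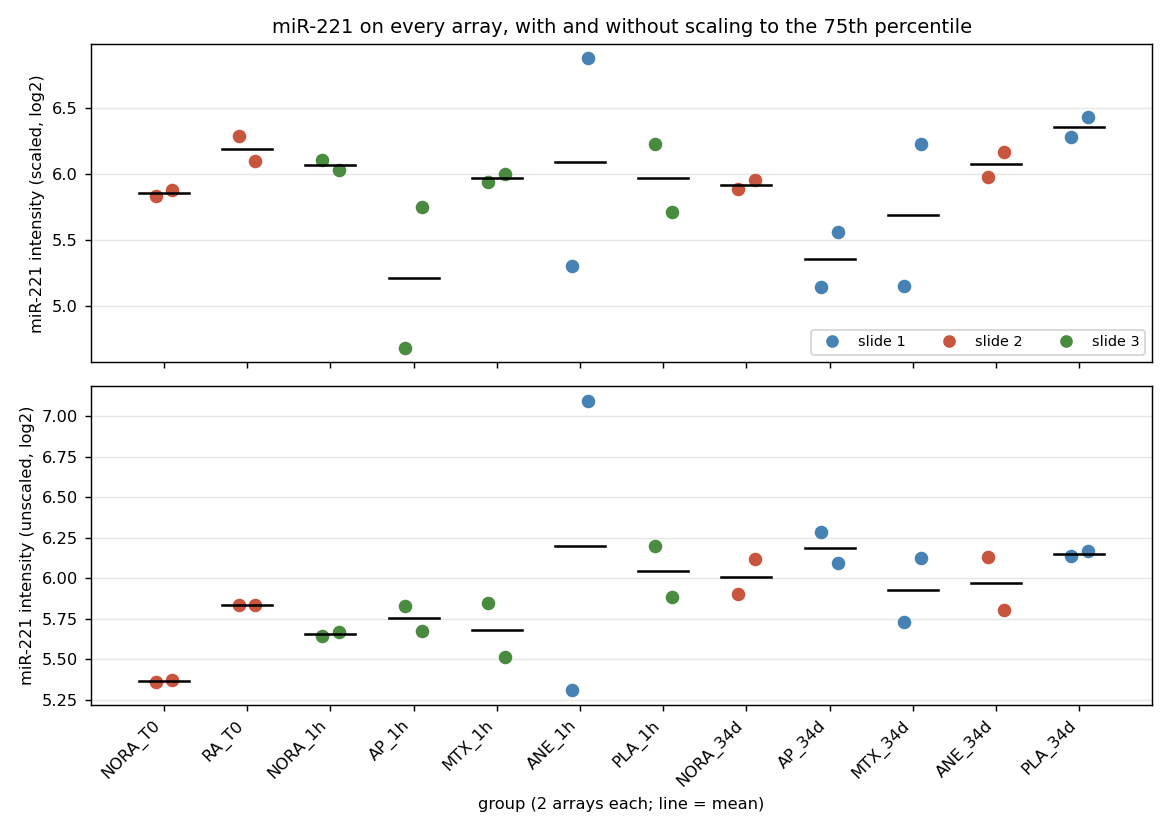
Total intensity of miR-221 on each of the 24 arrays on the log2 scale, scaled to the 75th percentile (upper axis) and unscaled (lower axis), by group, with points coloured by slide and a line at the mean of the 2 arrays. The low AP_34d values appear after scaling and not before it: unscaled, the AP_34d mean was 6.19 and the PLA_34d mean 6.15. Unscaled AP_1h, with a mean of 5.75, stays below PLA_1h at 6.04.

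Ordered by group mean (n = 2 each), PLA_34d was highest at 6.36 ± 0.11 (SD) and RA_T0 next at 6.19 ± 0.13. ANE_1h at 6.09 ± 1.11, ANE_34d at 6.07 ± 0.13 and NORA_1h at 6.07 ± 0.06 followed. PLA_1h at 5.97 ± 0.36, MTX_1h at 5.97 ± 0.04, NORA_34d at 5.92 ± 0.05 and NORA_T0 at 5.86 ± 0.03 came next. The lowest were MTX_34d at 5.69 ± 0.76, AP_34d at 5.36 ± 0.29 and AP_1h at 5.22 ± 0.75. No neighbours in this order differed by more than the standard error of a difference between groups, 0.45. A limma F test over the 12 groups gave miR-221 an F of 1.10 with an adjusted p of 0.602, in a test that called 2.38% of all 210 miRNAs tested. Restricted to differences between groups on the same slide, the F was 1.24 with an adjusted p of 0.569, where 1.9% of miRNAs were called.

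Over the 21 comparisons made, 0 passed the adjusted threshold for miR-221 and 2 had an unadjusted limma p under 0.05, AP_34d against PLA_34d and AP_1h against RA_T0. In those comparisons 84 and 27 of the 210 miRNAs had an unadjusted p under 0.05. Arthritic and healthy animals gave no difference past the threshold. Before therapy, RA_T0 exceeded NORA_T0 by 0.33 (SE 0.45, limma adjusted p = 0.944), a 1.26-fold difference with a 95% interval from -0.63 to 1.30 on the log2 scale. The difference did not pass the test, and 0.952% of miRNAs did. The groups did not overlap, scaled or unscaled, which held for miR-221 in 6 of the 18 comparisons of 2 groups. With 2 arrays per group such separation is common, and its share over all miRNAs was not counted. Averaged over the times, arthritic and healthy animals differed by 0.01 (SE 0.22, adjusted p = 0.992), with an interval from -0.47 to 0.49, and 0.476% of miRNAs were called. In healthy animals, miR-221 at 1 hour and at 34 days was 0.21 and 0.06 above T0 (SE 0.45, adjusted p = 0.995 and 0.977), where 2.38% and 0.952% of miRNAs were called. PLA_1h differed from NORA_1h by -0.10 (adjusted p = 0.990) and ANE_34d from NORA_34d by 0.15 (adjusted p = 1), and 0.0% of miRNAs were called in either comparison.

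The mechanical stimulation groups had the lowest scaled group means of miR-221, but no difference passed the adjusted threshold. Unscaled, the AP_34d mean was 6.19, and the lowest mean was 5.37, in NORA_T0. At 34 days AP read 1.01 lower than PLA on the log2 scale (-1.01, SE 0.45, 95% interval -1.97 to -0.04), a 2.01-fold difference, with an adjusted p of 0.113. All 4 of these arrays shared a slide, and 0.0% of the 210 miRNAs were called. Against RA_T0, AP differed by -0.98 at 1 hour (adjusted p = 0.366) and by -0.84 at 34 days (adjusted p = 0.151), each with SE 0.45. With AP_1h replicate 1 left out the 1 hour difference was -0.44, and with replicate 2 left out -1.51. In those comparisons 0.0% and 19.0% of miRNAs were called. Against PLA_1h, AP_1h differed by -0.75 (adjusted p = 0.691), with 0.952% of miRNAs called and AP_1h replicate 1 alone below both placebo arrays. Without that array the difference was -0.22, and without the other AP_1h array -1.29. The change from T0 to 34 days was 0.90 lower in AP than in NORA (-0.90, SE 0.63, adjusted p = 0.494), with 0.476% of miRNAs called.

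The AP_34d differences were seen in scaled and not in unscaled intensities. The unscaled total intensity of miR-221 was 78.0 and 68.3 on the AP_34d arrays, 70.4 and 71.9 on the PLA_34d arrays, and 57.0 and 57.2 on the RA_T0 arrays. Unscaled, AP_34d was thus 0.04 above PLA_34d and 0.35 above RA_T0 on the log2 scale. The AP_1h arrays, unscaled at 57.0 and 51.0, were both below the PLA_1h arrays, at 73.5 and 59.1, by a mean of 0.29 on the log2 scale (-0.29), and differed from RA_T0 by -0.08. Over all 210 miRNAs the unscaled median difference was 1.13 for AP_34d against PLA_34d and 1.29 for AP_34d against RA_T0. In both, miR-221 stood below that median. With scaling the medians were 0.21 and 0.16. With the percentile over all miRNAs, the median or quantile normalization in place of the scaling used, AP_34d minus PLA_34d was -1.24, -1.12 and -0.85. Lymphocyte miRNAs also read lower in AP_34d: the summed level of their 4 miRNAs, all detected, was 11.1 to 12.9 there and 13.6 to 13.7 in PLA_34d (log2). In that comparison 0 of the 4 were called, as were 0.0% of all 210 miRNAs. The AP_34d arrays disagreed, with miR-150 at 9.55 on replicate 1 and 12.4 on replicate 2. The summed level was 11.1 to 13.7 in AP_1h and 13.8 to 13.9 in RA_T0. Red cell miRNAs, both detected, summed to 12.2 to 13.1 in AP_34d and 14.1 to 14.2 in PLA_34d, and miR-223 read 13.1 to 13.6 and 12.8 to 13.0. The part of these cell types and of the array brightness in the miR-221 values was not tested.

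**Figure D2:**
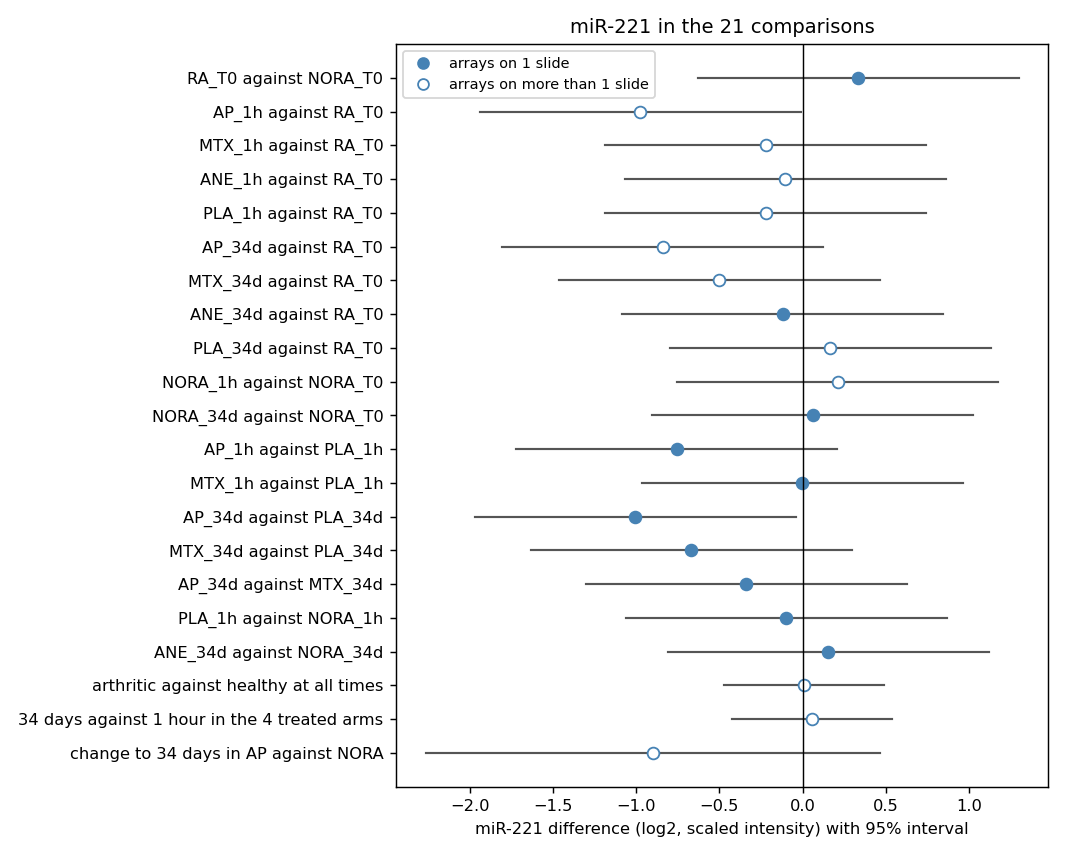
Log2 difference in scaled miR-221 intensity with its 95% interval from limma in each of the 21 comparisons; filled points are comparisons within 1 slide and open points span slides. The intervals of AP_34d against PLA_34d and AP_1h against RA_T0 end at -0.04 and -0.01, and the others include 0; after adjustment none passed the threshold.

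The other therapies showed smaller differences from their controls. MTX_34d differed from PLA_34d by -0.67 (SE 0.45, adjusted p = 0.922), and MTX_1h differed from PLA_1h by less than 0.01 on the log2 scale (adjusted p = 1). AP_34d differed from MTX_34d by -0.34 (adjusted p = 0.637). In these 3 comparisons 0.0% of miRNAs were called. With MTX_34d replicate 1 left out, MTX_34d minus PLA_34d was -0.13 and AP_34d minus MTX_34d was -0.87. With MTX_34d replicate 2 left out they were -1.21 and 0.20. Against RA_T0, MTX differed by -0.22 at 1 hour and -0.50 at 34 days, ANE by -0.10 and -0.12, and PLA by -0.22 and 0.17. Adjusted p ran from 0.790 to 1 in these 6 comparisons, in which 1.43%, 0.0%, 0.476%, 0.0%, 0.952% and 0.0% of miRNAs were called in the same order. The 4 treated arms together were 0.06 higher at 34 days than at 1 hour (SE 0.22, 95% interval -0.42 to 0.54, adjusted p = 0.955), with 1.9% of miRNAs called. The comparisons with RA_T0 share its 2 arrays.

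The ANE_1h arrays, given isoflurane and no therapy, disagreed most. Unscaled miR-221 was 39.7 on replicate 1 and 137 on replicate 2, the lowest and the highest of the 24 arrays, and both probes showed the gap, at 14.0 and 50.8 for the first and 25.6 and 85.8 for the second. With replicate 1 left out, ANE_1h was 0.68 above RA_T0, and with replicate 2 left out it was 0.89 below (-0.89). The summed red cell miRNAs ran from 11.2 to 13.9 in this group, and the lymphocyte miRNAs only from 12.6 to 12.8. A wide red cell range was not particular to ANE_1h. It was 12.1 to 14.7 in RA_T0, whose miR-221 arrays read 6.29 and 6.10. In MTX_34d, where miR-221 was split, it was 12.6 to 14.6. A relation of miR-221 to the red cell miRNAs was not tested. Over all groups, the residual SD of miR-221 was 0.47, against a median of 0.35 over the 210 miRNAs.

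miR-222 gave no measured level in most groups. The software called it detected on NORA_1h replicate 1, AP_1h replicate 1, ANE_1h replicate 2, PLA_1h replicate 1 and AP_34d replicate 1, with unscaled totals of 8.70, 10.3, 10.5, 11.9 and 14.1. On the 19 other arrays the listed total, 4.08 to 6.19, was the error alone. The detected totals were the signal of its second probe alone. That probe read 3.83 to 14.1 over all arrays. It read 9.86 on MTX_1h replicate 1, which had no detection call, and 8.70 on NORA_1h replicate 1, which had one, so detected and undetected arrays overlapped. The first probe read 0.05 to 7.56.

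Of the 21 comparisons of miR-222, 0 passed the adjusted limma threshold and 0 had an unadjusted p under 0.05, against the shares of all miRNAs given above. Its fitted differences are not measured sizes. On 19 of the 24 arrays the listed total was an error, and scaled values under a floor of 5.76 were raised to it before the fit. In MTX_1h, NORA_34d, MTX_34d and ANE_34d both arrays entered at the floor, with an SD of 0. AP_1h replicate 1, which had a detection call, was also raised to it from 4.65. These tests therefore could not decide whether miR-222 changed. No fold is given for any pair of groups, since each group held at least 1 array without a detection call. In the 7 groups without a detected array, miR-222 was not detectable at this signal, which is not the same as absent.

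The summed signal of both probes, detected or not, gives a description below the detection call. For miR-222 it was lowest on ANE_1h replicate 1 (3.88), highest on AP_34d replicate 1 (20.6) and had a median of 12.9. The star strands, which are usually degraded, were detected on 0 of 24 arrays. Their summed signals were -0.48 to 6.16 for miR-221* and -6.01 to 0.84 for miR-222*. On every array the main strand's summed signal was above its own star strand's, although intensities of different probes do not rank abundance.

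**Figure D3:**
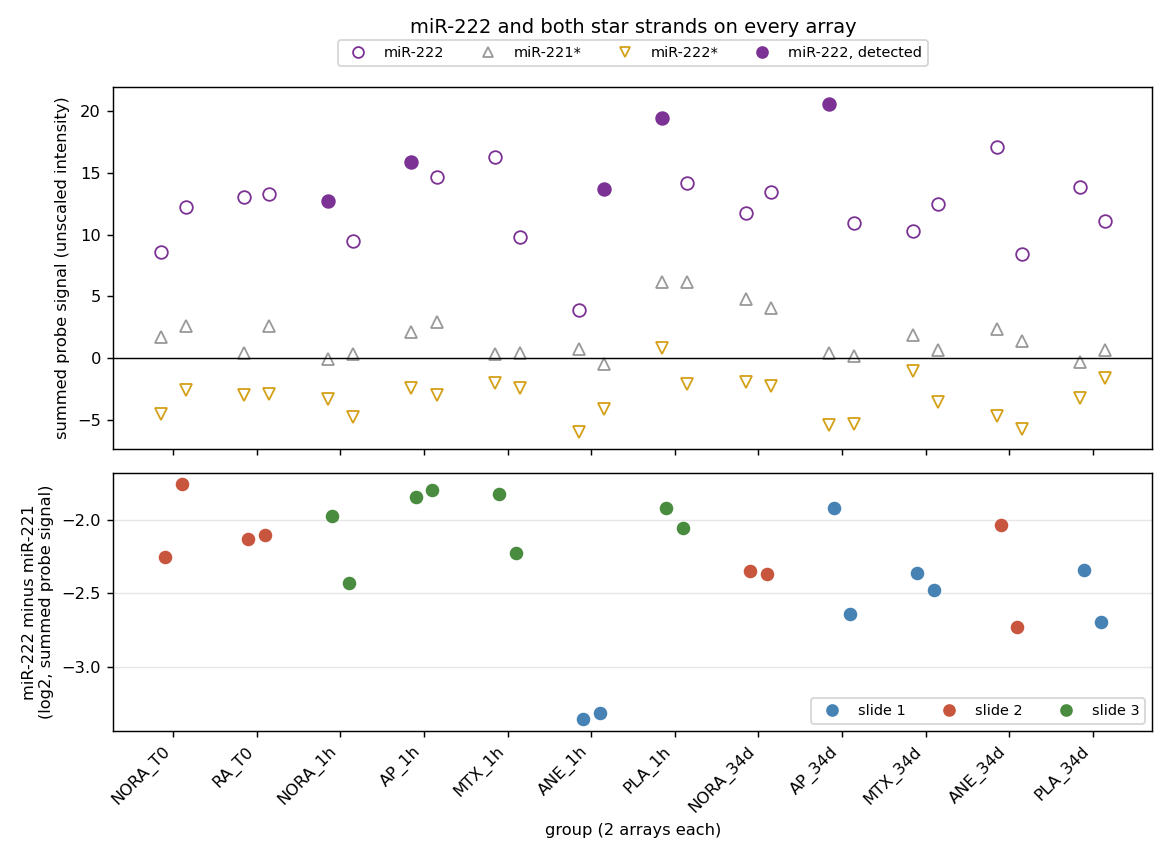
Upper axis: summed, unscaled probe signal of miR-222 (filled where detected) and of both star strands on every array. Lower axis: log2 miR-222 minus log2 miR-221 summed probe signal by array, coloured by slide; both ANE_1h arrays, at -3.35 and -3.32, lie below the other 22, which run from -2.73 to -1.76.

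The ratio of miR-222 to miR-221 within an array needs no scaling and shows only whether the members changed unequally. On the listed totals, of which 19 miR-222 values are errors, no variation over the groups was detected (F = 0.90, permutation p = 0.555, one-sided, n = 24). On the summed probe signals the groups varied (F = 4.15, permutation p = 0.0187), a measure chosen after the data were seen. The lowest ratios were those of ANE_1h. The miR-222 signal behind its replicate 1 was 3.88, without a detection call, so that ratio is no measured level. For the 333 miRNAs with 2 probes that were detected on no array, the summed signal was averaged over the 24 arrays. These averages had a 95th percentile of 5.48 and a highest value of 12.4. The same average for miR-222 was 12.8, whereas 3.88 is the value of a single array. ANE_1h replicate 2 had a detection call and a summed miR-222 signal of 13.7. Its ratio was also low, at -3.32, and its miR-221 signal was the highest of the series. Without ANE_1h the F was 1.19 (permutation p = 0.391, n = 22). That group was left out after its low ratios were seen, so this is no independent check. With arrays permuted within slides only, the F was 2.58 (permutation p = 0.116), which does not pass the threshold.

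The signals of the members were correlated over arrays. On scaled summed probe signals Pearson's r was 0.65 (permutation p = 0.00152, adjusted 0.0135 over 14 relations) and Spearman's rho 0.54 (permutation p = 0.00672, adjusted 0.0167), n = 24. Unscaled, r was 0.53 and rho 0.60 (adjusted permutation p = 0.0135 for both). Without the 2 arrays farthest from the median of miR-221, r was 0.73 scaled and 0.56 unscaled. Without ANE_1h, again left out after its ratio was seen, r was 0.76 scaled. Within slides of 8 arrays, r scaled was 0.73 on slide 1, 0.30 on slide 2 and 0.89 on slide 3 (exact permutation, adjusted p = 0.0488, 0.454 and 0.0438), so it was not shown on slide 2, which held T0, NORA_34d and ANE_34d. On the listed totals r was 0.50 and rho 0.57 (adjusted permutation p = 0.0207 and 0.0135), and unscaled they were 0.46 and 0.36 (adjusted permutation p = 0.0512 and 0.103). As 19 of the 24 miR-222 totals are errors, these values do not describe a relation of 2 measured levels. Both members share each array's RNA, brightness and scale factor, and the part of these in the relation was not tested.

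The miRNAs most like miR-221, among the 131 others detected on all 24 arrays, were ranked by Pearson's r of scaled log2 levels, as a description. They were miR-1224 (r = 0.85), miR-16 (0.83), miR-378 (0.83), miR-365 (0.82) and miR-188 (0.81), against a median r of -0.13 and a lowest of -0.76 over the candidates. Without scaling the values were 0.57, 0.64, 0.71, 0.66 and 0.62. Without ANE_1h, miR-378 ranked first at 0.92 and miR-16 stayed at rank 2. There miR-1224, miR-365 and miR-188 fell to ranks 5, 8 and 20. Unscaled, miR-1224 fell to rank 11, so the order was not stable. miR-222 could not be ranked, as it had a level on 5 arrays.

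Of a list of 24 other miRNAs with vascular roles, among them the endothelial miR-126, the hypoxia-induced miR-210 and the members of the miR-17-92 cluster, 22 were on the array and 20 were tested. In AP_34d against RA_T0, 8 of the 20 were called higher and 0 lower. Of all 210 miRNAs, 33 were called higher and 7 lower, 19.0% together. The median difference was 0.75 for the list and 0.16 over all 210 miRNAs. In that comparison miR-221 differed by -0.84. In the other 20 comparisons 0 of the 20 were called by limma, and from 0 to 13 had an unadjusted p under 0.05. The 13 were in AP_34d against PLA_34d, where 84 of all 210 miRNAs had such a p, the list's median was 0.64 and that of all miRNAs 0.21. The calls of AP_34d against RA_T0 depended on the scaling: 40 miRNAs were called here, 0 with the percentile taken over all miRNAs or with the median as the scale, 7 after quantile normalization and 134 without scaling. The list was chosen with earlier results of these data known, and it shares miR-181a and miR-181b with the lymphocyte miRNAs above.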

How the data were processed

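Per the labels, PBMCs were separated on a Ficoll gradient, stored, and extracted together, and RNA was labelled with Cy3. The authors deposited scanner output of Agilent Feature Extraction 10.7.3.1. Its linear intensity values are background-corrected and not normalized between arrays, and undetected totals equal the listed error. They also deposited a log2 table whose normalization is not stated beyond tool names. It was used as an alternative.

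Total intensities were scaled to the 75th percentile over the 132 miRNAs detected on all arrays. Values under a floor of 5.76 (log2 2.53) were raised to it before taking log2. The floor was the lowest scaled value with a detection call on an array, as the median of the 24. A detection call on 3 or more arrays kept 210 miRNAs, fitted with limma 3.58.1 in R 4.3.3 (12 group means, two-sided) and adjusted by Benjamini-Hochberg. An adjusted p under 0.05 was a call. P-values measure the spread between arrays of a group. Having 2 arrays per group limits the precision. Ratios and correlations used scipy and 100000 permutations, or exact enumeration within slides. The fit was tested on simulated data. For NORA at 34 days one label line names 1 hour, and the title's 34 days was used.

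The members, the lists and the comparisons were chosen with earlier results of these data known. Both members, their star strands and the 5 miRNAs most like miR-221 were named by rule, and vascular miRNAs by count.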

Additional observations from a re-analysis of the deposited data

How the results depend on the processing

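No difference of miR-221 passed an adjusted p of 0.05 in any of the 393 refits of the 21 comparisons (lowest 0.0602, AP_1h against RA_T0 without AP_1h replicate 2), although 23 had an unadjusted p under 0.05. By the study's threshold, a fold over 2 and an unadjusted limma p under 0.05, AP_34d against PLA_34d passed at -1.01, 1 of 40 miRNAs that did so among the 210. A sign change counted only where a value exceeded its standard error. Without scaling, AP_34d against RA_T0 turned to 0.35, AP_34d against PLA_34d to 0.0370 and MTX_34d against RA_T0 to 0.0907. With the percentile over all miRNAs, AP_1h against PLA_1h turned to 0.0722. With 1 array left out, ANE_1h against RA_T0 ran from -0.89 to 0.68 and MTX_34d against RA_T0 from -1.04 to 0.0350. The cause was not tested. The F of miR-221 had an adjusted p of 0.247 to 0.855 over 18 alternatives. For miR-222, 1 of 372 refits was called, AP_34d against RA_T0 on its second probe alone (-0.96, adjusted p = 0.0460), and its fitted sign changed in 33. The ratio's F went from 0.90 to 4.15 on summed probe signals, and the correlation's adjusted permutation p to 0.0512 (r = 0.46) unscaled.

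Replicate numbers did not pair the arrays: the median correlation of replicate differences was -0.03 over 66 pairs of groups, with 26 over 0.1. With the replicate block, 0 of the 21 miR-221 comparisons were called, and AP_34d against PLA_34d stayed at -1.01 (adjusted p = 0.0848). Slide as a random block was not run, since each group lay on 1 slide. The 2 arrays per group and a miR-222 signal near its error limit what could be seen.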
